A study of Mus musculus with 17 samples.

Results

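The 10 genes described here encode subunits of the high-voltage-activated calcium channels: the pore-forming subunits Cacna1a, Cacna1b, Cacna1c, Cacna1d and Cacna1e, the alpha2delta subunits Cacna2d1, Cacna2d2 and Cacna2d3, and the beta subunits Cacnb3 and Cacnb4. They were found by gene symbol, and all 10 were present among the 52636 genes of the single-cell table and among the 28692 genes of the spatial table. The cells came from the anterior thalamic nuclei of WT B6 mice, dissected from acute brain slices, dissociated, picked by hand and sequenced in wells. The spatial data came from 3 Visium sections of WT mouse brain of 10 µm thickness, stained for NeuN and DAPI, with 1 section labelled as anterior and 2 labelled as posterior anterior thalamic nuclei. The labels give no age or sex, name no treatment and do not say whether the 3 sections came from separate mice.

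High-voltage-activated calcium channels open on strong depolarization and let calcium into the neuron. The pore subunit sets the channel type: Cacna1a makes P/Q-type, Cacna1b N-type and Cacna1e R-type channels, which serve transmitter release, while Cacna1c and Cacna1d make L-type channels, which serve calcium signalling in the soma and dendrites. Beta subunits bind the pore on its inner side and help it to the membrane, and alpha2delta subunits, which sit on the outer face, increase the number of channels at the surface and take part in synapse formation. Gabapentin and pregabalin bind the products of Cacna2d1 and Cacna2d2.

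The promoters of the 3 alpha2delta genes are printed because these genes had their highest levels in different brain regions, described below. Each sequence runs from 250 bases before to 50 bases after the annotated start, in the direction of the gene, from RefSeq on GRCm38.p6, at chr5:15934441-15934740 on the plus strand for Cacna2d1, chr9:107399630-107399929 on the plus strand for Cacna2d2 and chr14:29721815-29722114 on the minus strand for Cacna2d3. Capitals mark GGGCGG, the GC box, or its reverse complement CCGCCC; neighbouring matches may overlap.
Cacna2d1: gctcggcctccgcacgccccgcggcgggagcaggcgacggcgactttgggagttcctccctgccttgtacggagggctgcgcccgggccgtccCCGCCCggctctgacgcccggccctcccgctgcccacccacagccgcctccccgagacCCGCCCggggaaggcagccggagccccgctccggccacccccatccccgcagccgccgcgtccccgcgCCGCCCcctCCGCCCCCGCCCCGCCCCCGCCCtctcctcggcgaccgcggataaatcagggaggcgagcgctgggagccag
Cacna2d2: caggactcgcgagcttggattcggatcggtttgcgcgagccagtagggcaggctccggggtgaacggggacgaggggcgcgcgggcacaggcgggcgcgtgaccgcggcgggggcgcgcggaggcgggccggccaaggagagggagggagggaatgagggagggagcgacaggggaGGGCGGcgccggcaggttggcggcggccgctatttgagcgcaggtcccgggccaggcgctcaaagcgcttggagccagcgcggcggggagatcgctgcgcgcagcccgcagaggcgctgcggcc
Cacna2d3: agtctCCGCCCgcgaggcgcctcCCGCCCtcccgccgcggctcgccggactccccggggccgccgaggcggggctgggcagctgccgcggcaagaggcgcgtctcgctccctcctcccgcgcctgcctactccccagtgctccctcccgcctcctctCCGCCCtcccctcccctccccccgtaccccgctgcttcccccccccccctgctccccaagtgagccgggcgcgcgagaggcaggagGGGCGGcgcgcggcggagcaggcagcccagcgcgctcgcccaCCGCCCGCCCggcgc

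The windows of all 3 genes were rich in CpG, the dinucleotide of CpG islands. Cacna2d1 had 42 CpG and 80.0% GC, Cacna2d2 had 43 CpG and 75.7% GC, and Cacna2d3 had 41 CpG and 81.3% GC, against a median of 7 CpG and 52.7% GC over the 32851 promoters of the table. The GC box was found 7 times in Cacna2d1, 1 time in Cacna2d2 and 6 times in Cacna2d3, counting both strands, and 35.7% of all promoters of this length held it. TATAAA, TGACGTCA and CCAAT, searched on both strands, were found in none of the 3 windows, and 13.6%, 1.79% and 37.4% of all promoters held them, in that order. Of the 10 genes, 9 matched the promoter table, with 15 promoters between them.

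On GRCm38.p6, the pore genes lie at chromosome 8, 84338631 to 84640251 (Cacna1a), chromosome 2, 24603860 to 24763200 (Cacna1b), chromosome 6, 118587240 to 119197384 (Cacna1c), chromosome 14, 30039941 to 30491156 (Cacna1d) and chromosome 1, 154390806 to 154884785 (Cacna1e). The alpha2delta genes lie at chromosome 5, 15934264 to 16374511 (Cacna2d1), chromosome 9, 107399733 to 107529346 (Cacna2d2) and chromosome 14, 28904943 to 29722775 (Cacna2d3), and the beta genes at chromosome 15, 98628436 to 98644536 (Cacnb3) and chromosome 2, 52428320 to 52676609 (Cacnb4). Protein-coding genes overlap Cacna1c (Dcp1b), Cacna1d (Chdh and Dcp1a) and Cacna2d3 (Lrtm1). The sources used here do not say whether counting used the strand, so reads of overlapping genes may be shared.

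Of 1344 wells, 912 met the rule of a recorded animal and at least 1000 detected genes, and 8 of these carried another animal number than most wells of the same collection and were set aside. The 904 cells kept held 877 neurons from 3 animals (101, 317 and 459) and 27 oligodendrocyte-like cells. Median counts per neuron were 49798, 8872 and 50553 in animals 1, 2 and 3, so animal 2 was the shallowest. Levels are counts per 1000000 gene counts (CPM) in a sum of cells of 1 animal or spots of 1 section, they are compared within a gene only, and intervals cover counting error only. Clustering without any gene of the Cacn family, which includes all 10 members, gave 5 neuron clusters. Their leading genes included Acta2 and Myl9 in cluster 1 (347 neurons), which also had the highest Col27a1, Calb2, Gad2 and Necab1 in cluster 2 (204), Rreb1, Foxp1 and Tox in cluster 3 (179), Itm2a, Slco1a4, Car4 and Ly6a in cluster 4 (108, compared in animals 2 and 3 only) and C1ql2 and Sncg in cluster 5 (39). All 8 thalamic neuron markers were detected in clusters 1 to 4, and all but Ramp3 in cluster 5, and they summed to 2770 CPM or more in clusters 1 to 4 and to 1843 CPM in cluster 5. In the sections, 11 spot regions entered the comparison, and the region with the highest level of thalamic neuron markers (Gbx2, Ntng1, Shox2 and Tcf7l2 led it) held 658 of 7827 spots. Region 12, led by Cabp7 and Neurod6, held 60 spots of section 6 only and was left out. All orders of regions below are among the 11 compared.

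All 10 genes were detected in the neurons of every animal. Among pore genes, Cacna1a had 280, 268 and 253 CPM in animals 1, 2 and 3, Cacna1c had 169, 154 and 166 CPM, Cacna1b had 79.3, 91.7 and 104 CPM and Cacna1d had 49.9, 49.6 and 38.8 CPM. The R-type gene Cacna1e differed more between animals, with 57.6, 14.5 and 29.9 CPM in animals 1, 2 and 3, whose 95% Poisson intervals of 51.7 to 64.0, 10.6 to 19.4 and 27.9 to 32.0 CPM did not overlap.

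Of the alpha2delta genes, Cacna2d1 had 164, 201 and 167 CPM in animals 1, 2 and 3, Cacna2d2 had 18.8, 6.76 and 9.34 CPM, and Cacna2d3 had 43.4, 29.3 and 32.0 CPM. The beta gene Cacnb4 had 321, 338 and 333 CPM and Cacnb3 had 28.3, 35.1 and 42.3 CPM. A Cacnb4 count was found in 82.8% of neurons and a Cacna1a count in 81.0%, against 51.9% and 37.0% of the oligodendrocyte-like cells. Detection of Cacna2d2 was close between them, at 13.1% of neurons and 11.1% of the oligodendrocyte-like cells, so its share in neurons was not clearly above that in another cell type. Over all cells at their own depth, Cacnb3 went the other way, found in 28.6% of neurons and 40.7% of the oligodendrocyte-like cells. This share in neurons was not above that in another cell type either. With every cell thinned to 5000 counts, which left out 0, 59 and 2 neurons of animals 1, 2 and 3, Cacnb4 was found in 52.5%, 71.3% and 65.0% of their neurons, and in 44.4% and 42.9% of the oligodendrocyte-like cells of animals 2 and 3.

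The oligodendrocyte-like cells, whose median count was 25264, showed Cacna1a at 110 CPM (95% Poisson interval 92.6 to 130), Cacna2d1 at 111 CPM (93.3 to 131) and Cacnb4 at 303 CPM (273 to 335). These cells were pooled over 3 animals, and the 382 Cacnb4 counts came from 14 of 27 cells. The intervals leave out the spread between cells and between animals. The Cacnb4 interval held the neuron values of animals 1 and 3, and Cacna1a and Cacna2d1 were below the neurons of all 3 animals. Cacna2d2 in these cells, at 12.7 CPM (7.25 to 20.6), lay within the range of the neurons. Cacnb3, at 46.8 CPM (35.6 to 60.3), was above the neurons of all 3 animals, with the value of animal 3 inside its interval. The thalamic neuron markers summed to 1603 CPM in the oligodendrocyte-like cells, and the part of neuronal RNA in these values was not tested.

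**Figure D1:**
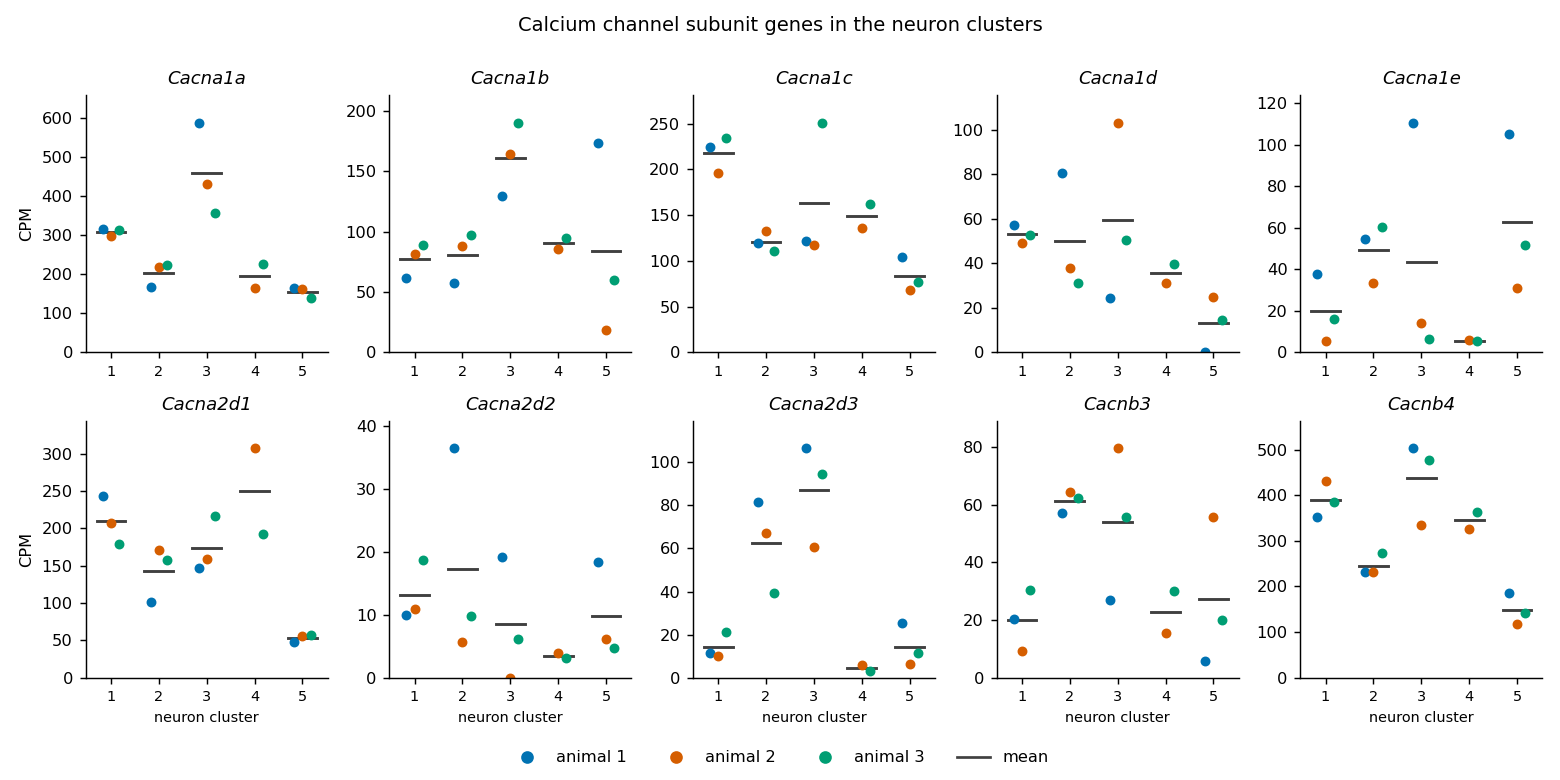
Levels of the 10 genes in the 5 neuron clusters, 1 panel per gene, with the cluster on the x axis and CPM on the y axis; points are animals and horizontal lines are means. Cacna1a and Cacna2d3 had their highest mean in cluster 3, and Cacna2d1 and Cacnb4 were lowest in cluster 5.

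In the Foxp1, Rreb1 and Tox neurons of cluster 3, 3 of the 10 genes were higher than in the other neuron clusters and 0 were lower, while 12.8% of the 12848 genes tested were called, 6.65% higher and 6.13% lower. The 3 were Cacna1a, Cacna2d3 and Cacnb4, 1 gene from each subunit class. The median log2 fold change of the 10 genes was 0.77, against 0.05 over all genes tested. The fit was edgeR's quasi-likelihood test with animal as a block, which took each cluster against the log-scale average of the remaining ones at equal weight, with Benjamini-Hochberg adjustment over all genes and a threshold of 0.05. The p-values measure the spread of the animal sums within clusters that the block leaves, pooled over all clusters of the fit. Differences between whole animals are taken out by the block. The clusters come from other genes of the same cells, and cluster 3 neurons had 0.716, 0.725 and 0.609 times the median count of all neurons of animals 1, 2 and 3; the part of depth in these results was not tested. The median share of mitochondrial counts was 4.49% in cluster 3 and 2.01 to 3.45% in the other neuron clusters, and its part was not tested either. All 5 markers of oligodendrocyte precursors were detected in cluster 3, at 0 to 125 CPM in sum per animal, against at most 28.6 CPM in the other neuron clusters. Of 6 astrocyte markers, 5 were detected there and Gfap was at 0, and they summed to 2.57 to 42.1 CPM per animal, against at most 21.4 CPM in the other neuron clusters. With the 36 neurons that held 3 or more markers of another cell type left out, all 3 calls held, with log2 fold changes of 1.29 ± 0.18 for Cacna1a, 2.71 ± 0.42 for Cacna2d3 and 0.87 ± 0.16 for Cacnb4 (SE).

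Cacna1a, the P/Q-type pore gene, had 587, 431 and 357 CPM in cluster 3 of animals 1, 2 and 3, against 217 ± 7.28 CPM in the other clusters (SD, n = 3). Every animal's cluster 3 value exceeded all of its own values in the other clusters, and the log2 fold change was 1.15 ± 0.17 (SE, adjusted p = 0.000249, edgeR). The N-type pore gene Cacna1b had 130, 164 and 190 CPM in cluster 3, against 83.7 ± 14.6 CPM in the other clusters, and missed the threshold (log2 fold change 0.97 ± 0.35, adjusted p = 0.0778, edgeR). The L-type and R-type genes were not called in cluster 3: Cacna1e had 110, 14.05 and 6.40 CPM there, high in animal 1 alone.

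Cacna2d3 had 107, 60.9 and 94.5 CPM in cluster 3 of animals 1, 2 and 3, against 26.9 ± 11.2 CPM in the other clusters (SD, n = 3). Its log2 fold change of 2.52 ± 0.41 was the largest of the 10 genes (SE, adjusted p = 0.000458, edgeR). When a random part of the counts was used to cluster and the rest to test, the log2 fold change of Cacna2d3 was 1.18 ± 0.65 (SE). It was no longer called (adjusted p = 0.263, edgeR). In that setting cluster 3 held 188 cells, 111 of them shared with the 179 of the main cluster 3, and cluster 4 did not separate. The part of these changed groups in the lower value was not tested. Cluster 2, the Calb2 and Necab1 neurons, followed cluster 3 with 81.8, 67.1 and 39.1 CPM, overlapping it, and clusters 1, 4 and 5 lay lower, at 2.96 to 25.6 CPM in every animal. Cacna2d1 and Cacna2d2 were not called in cluster 3, with log2 fold changes of 0.35 ± 0.22 and -0.50 ± 0.82 (SE).

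Cacnb4 had 504, 335 and 479 CPM in cluster 3 of animals 1, 2 and 3, against 275 ± 17.8 CPM in the other clusters (SD, n = 3), a log2 fold change of 0.74 ± 0.16 (SE, adjusted p = 0.00498, edgeR). It overlapped cluster 1, where Cacnb4 had 353, 431 and 386 CPM. Leaving out animal 2 or animal 3 ended the call, with adjusted p values of 0.0701 and 0.112 by edgeR. Of the 10 genes, 7 were called higher in cluster 3 without animal 1, 2 without animal 2 and 2 without animal 3, while 3556, 305 and 529 of all genes were called in either direction in these fits.

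In the C1ql2 neurons of cluster 5, 4 of the 10 genes were lower than in the other clusters and 0 were higher, with 13.4% of all genes called, 6.71% lower and 6.65% higher. The 4 were Cacna1a, Cacna1c, Cacna2d1 and Cacnb4. The median log2 fold change was -0.75 over the 10 genes and -0.20 over all genes tested. Cluster 5 held 6, 9 and 24 neurons of animals 1, 2 and 3, with 2.33, 1.99 and 2.60 times the median count of all neurons of these animals; the part of depth in these results was not tested.

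Cacna2d1 had 48.3, 55.8 and 56.7 CPM in cluster 5 of animals 1, 2 and 3, against 187 ± 23.6 CPM in the other clusters (SD, n = 3). Every animal's cluster 5 value was below every value of the other clusters, which ran upwards from 102 CPM, and the log2 fold change was -1.75 ± 0.27 (SE, adjusted p = 0.000201, edgeR). Cacnb4 had 185, 118 and 142 CPM in cluster 5, against 356 ± 22.8 CPM in the other clusters, a log2 fold change of -1.20 ± 0.19 (adjusted p = 0.000268, edgeR). Its cluster 5 values also did not overlap any other cluster.

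Cacna1a had 165, 161 and 139 CPM in cluster 5 of animals 1, 2 and 3, against 304 ± 45.1 CPM in the other clusters (SD, n = 3; log2 fold change -0.82 ± 0.20, adjusted p = 0.0102, edgeR). Clusters 2 and 4 lay close to cluster 5, with mean Cacna1a levels of 203 and 195 CPM. Cluster 2 had 168 CPM in animal 1, and cluster 4 had 165 CPM in animal 2. The main L-type pore gene of the brain, Cacna1c, had 104, 68.2 and 77.2 CPM in cluster 5, against 163 ± 23.0 CPM in the other clusters (log2 fold change -0.90 ± 0.26, adjusted p = 0.0278, edgeR). Both calls depended on which animal was left out. Without animal 1 they held, with log2 fold changes of -0.81 ± 0.19 for Cacna1a (adjusted p = 0.00049) and -1.10 ± 0.24 for Cacna1c (adjusted p = 0.000202, edgeR). Without animal 2 or animal 3 they were lost, with adjusted p values of 0.138 and 0.195 for Cacna1a and 0.309 and 0.374 for Cacna1c (edgeR). With neurons of at least 2000 genes, their adjusted p values were 0.0916 for Cacna1a and 0.231 for Cacna1c, and with split counts it was 0.0579 for Cacna1c. Of the 10 genes, 6 were called lower and 1 higher in cluster 5 without animal 1, and 2 lower without animal 2 and 2 lower without animal 3, while 3372, 547 and 727 of all genes were called.

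The remaining pore genes did not pass the threshold in cluster 5. Cacna1d, whose L-type channels open at more negative voltages than those of Cacna1c, was at 0, 24.8 and 14.6 CPM there, against 50.9 ± 6.50 CPM in the other clusters (log2 fold change -2.06 ± 0.72, adjusted p = 0.0684, edgeR). Cacna1e had 105, 31.0 and 51.7 CPM in cluster 5, against 34.8 ± 28.6 CPM in the other clusters (log2 fold change 1.46 ± 0.52, adjusted p = 0.073, edgeR), and was the 1 pore gene with a positive value there. Cacna1b ranged from 18.6 to 173 CPM over the 3 animals of cluster 5.

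**Figure D2:**
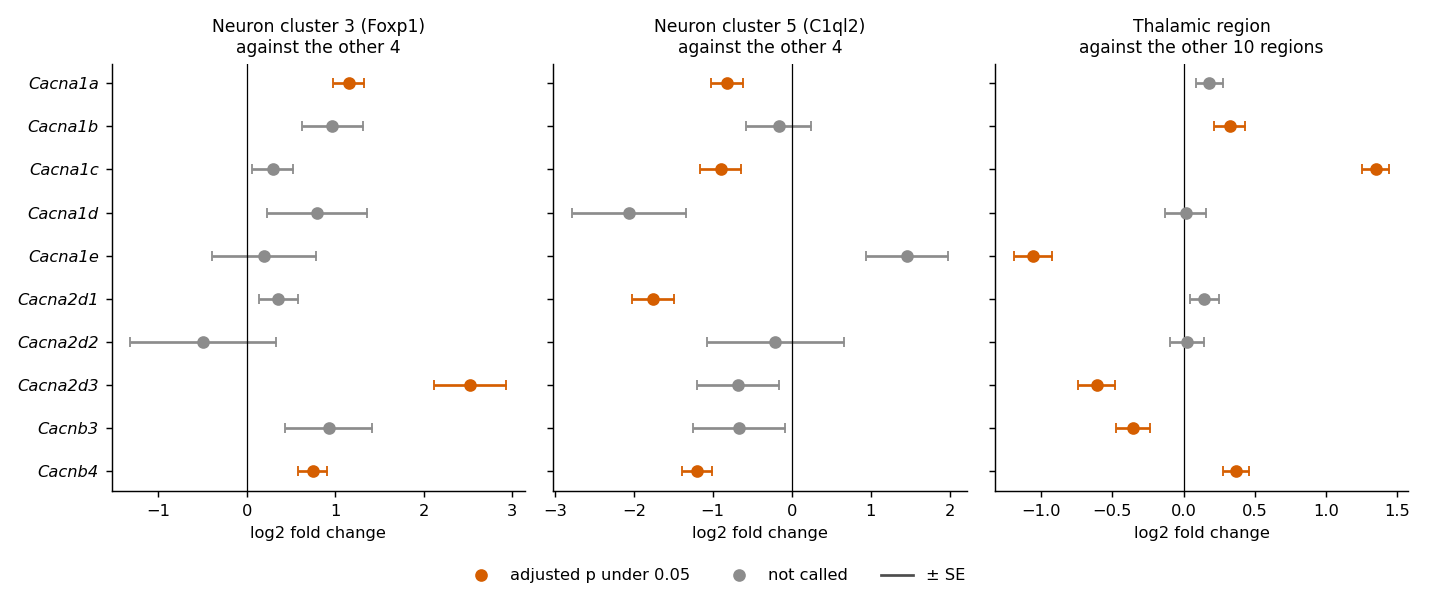
Log2 fold change (x axis) of each gene (y axis) in neuron cluster 3, in neuron cluster 5 and in the thalamic region of the sections, each against the other groups; bars are SE and orange marks an adjusted p under 0.05. Called genes lie above 0 in cluster 3 and below 0 in cluster 5, and on both sides of 0 in the thalamic region.

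In the Calb2, Gad2 and Necab1 neurons of cluster 2, 1 of the 10 genes was called, and 2.13% of all genes were, 1.74% higher and 0.397% lower. Cacna2d3 averaged 62.6 ± 21.7 CPM in cluster 2 and 33.7 ± 13.6 CPM in the other clusters (SD, n = 3; log2 fold change 1.82 ± 0.42, adjusted p = 0.0251, edgeR). The call held without animal 1 (adjusted p = 0.000505) and ended without animal 2 (0.602) and without animal 3 (0.336, edgeR). It also ended without the 36 neurons that held markers of other cell types, where the log2 fold change was 1.62 ± 0.44 (adjusted p = 0.0684). With split counts, all genes in clustering, clusters 1 and 4 merged and at least 2000 genes, the log2 fold changes were 1.67 ± 0.59, 1.42 ± 0.40, 1.30 ± 0.40 and 1.23 ± 0.47 (SE), and the call ended in each (adjusted p = 0.272, 0.108, 0.162 and 0.296). Of 8 markers of GABA neurons, 7 were detected in cluster 2 and Vip was at 0, and they summed to 205 to 602 CPM per animal there, against at most 43.4 CPM in the other neuron clusters; their part in this result was not tested.

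In cluster 1, edgeR called 0 of the 10 genes, with 0.957% of all genes called, 0.732% higher and 0.226% lower. An unadjusted edgeR p under 0.05 was found for 4 of the 10 and for 1348 of the 12848 genes tested. DESeq2 called 1 of the 10 and 311 of all genes. The values were Cacna1c at 225, 196 and 234 CPM in cluster 1, against 126 ± 20.7 CPM in the other clusters (log2 fold change 0.81 ± 0.22, adjusted p = 0.11, edgeR), and positive log2 fold changes of 0.41, 0.67 and 0.52 for Cacna1a, Cacna2d1 and Cacnb4. All 6 pericyte and smooth muscle markers were detected in cluster 1, at 8.55 to 572 CPM in sum per animal. In cluster 4, edgeR also called 0 of the 10, with 0.35% of all genes called, 0.257% higher and 0.0934% lower. An unadjusted edgeR p under 0.05 was found for 3 of the 10 and for 629 of the 12848 genes tested. DESeq2 called 1 of the 10 and 87 of all genes. Cacna2d1 had 307 and 193 CPM in cluster 4 of animals 2 and 3, against 145 ± 8.98 CPM in the other clusters (adjusted p = 0.392, edgeR), and Cacna2d3 had 5.84 and 2.96 CPM, against 44.7 ± 10.5 CPM (adjusted p = 0.13, edgeR). Of the 10 leading genes of cluster 4, Slco1a4, Ly6a and Ly6c1 are known from endothelial cells of brain vessels. All 5 endothelial markers were detected there, at 137 CPM in sum (6.87 to 153 per animal), against 11.5 to 60.4 CPM in the other neuron clusters, and their part in these values was not tested.

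Ordered by mean level, the neuron clusters ran from cluster 3 over clusters 1, 2 and 4 to cluster 5 for Cacna1a, with clusters 2 and 4 overlapping. Cacnb4 ran from cluster 3 over clusters 1, 4 and 2 to cluster 5, with clusters 3, 1 and 4 overlapping in turn. Cacna2d1 was highest in cluster 4 and fell through clusters 1, 3 and 2, each overlapping the next, to cluster 5, which stood apart. Cacnb3 was highest in cluster 2, at 57.0, 64.3 and 62.2 CPM, and lowest in cluster 1, at 20.5, 9.31 and 30.4 CPM, and these ranges did not overlap. For Cacna2d2, from cluster 2 over clusters 1, 5 and 3 to cluster 4, every cluster overlapped the next.

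Over the 14 animal by cluster sums, the 3 genes with the pattern most like Cacna1a were Gm42971, Nptn and Nbeal1 (Pearson r = 0.963, 0.945 and 0.945 on log2(CPM + 1)). For Cacna1c they were Peg3, Rgs8 and Ttyh3 (r = 0.889, 0.876 and 0.850), and for Cacna2d1 they were Frrs1l, Rasgrp1 and 2900055J20Rik (r = 0.954, 0.952 and 0.940). For Cacna2d3 they were Camk2n1, Tox and Fat3 (r = 0.898, 0.874 and 0.854), and for Cacnb4 they were Osbpl3, Man2a2 and Fhdc1 (r = 0.958, 0.948 and 0.947). The search took 7480 genes of at least 20 CPM on average outside the Cacn family, and the sums share animals, depth and library. Among the members, Cacnb4 was most like Cacna2d1 (r = 0.817) and Cacna1c (r = 0.813), and Cacna1e ran against Cacna2d1 (r = -0.626).

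Partner genes of the channels were counted in the same comparisons. Of all genes tested, 6.65% were higher and 6.13% lower in cluster 3, and 6.65% higher and 6.71% lower in cluster 5. In cluster 3, 7 of 16 genes of the release-site scaffold, which tethers channels near vesicles, were higher and 0 lower (median log2 fold change 0.57). They included Pclo (0.89 ± 0.13), Unc13b (3.26 ± 0.52), Tspoap1 (1.23 ± 0.24), which encodes a RIM-binding protein, and Rims2 (0.98 ± 0.20), with SE. In contrast 4 of 8 genes of the fusion machinery and calcium sensors of release were lower and 0 higher (median -0.54), among them Syt1 (-0.46 ± 0.09) and Vamp1 (-1.06 ± 0.21). Of the kinases and phosphatases that carry calcium signals, 3 of 9 tested were higher, namely Camk2a (2.23 ± 0.34), Camk2d (0.94 ± 0.18) and Ppp3ca (0.65 ± 0.14). Another beta subunit gene, Cacnb2, was higher too (1.43 ± 0.27), and the low-voltage pore gene Cacna1g had 606 ± 257 CPM in cluster 3 and 196 ± 38.6 CPM in the other clusters (SD, n = 3; 1.81 ± 0.20). With DESeq2's size factors, the median over all genes in cluster 3 was 0.17, not 0.05, and the calls above are relative to the main scaling.

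In cluster 5, 3 of 16 scaffold genes were lower and 0 higher (median log2 fold change -0.63): Rims3 (-2.22 ± 0.20), Unc13b, at 1.4 CPM or less in every animal, and Pclo (-0.72 ± 0.15), with SE. Of the fusion and sensor genes, 4 of 8 were higher and 0 lower (median 0.54), namely Syt2 (4.86 ± 0.73), Syt1 (0.51 ± 0.08), Snap25 (0.58 ± 0.10) and Vamp1 (1.04 ± 0.19). Of the genes whose products bind alpha2delta subunits, 3 of 5 tested were lower, among them Nrxn2 (-1.38 ± 0.21) and Nrxn3 (-1.74 ± 0.26). Camk2a had 0, 12.4 and 11.5 CPM in cluster 5, against 152 ± 48.1 CPM in the other clusters. Cacnb2 (-1.51 ± 0.34) and Cacna1g (-2.26 ± 0.26) were lower in cluster 5, the reverse of their sign in cluster 3; the fits share samples.

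In the sections, the thalamic region was set against the other 10 regions in the same kind of fit, with section as a block. The p-values measure the spread of the section sums within regions that the block leaves, pooled over all regions of the fit. In the thalamic region, 3 of the 10 genes were higher and 3 lower, with 29.7% of 12976 genes tested called, 16.5% higher and 13.2% lower. Cacna1c, Cacnb4 and Cacna1b were higher, Cacna1e, Cacna2d3 and Cacnb3 were lower, and Cacna1a, Cacna1d, Cacna2d1 and Cacna2d2 were not called. The median log2 fold change was 0.09 over the 10 genes and -0.01 over all genes tested. A spot covers several cells, so fewer cells of a type and less RNA per cell cannot be told apart.

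The L-type pore gene Cacna1c had 80.4, 79.0 and 92.4 CPM in the thalamic region of sections 2, 5 and 6, against 34.9 ± 1.21 CPM in the other regions (SD, n = 3). Its log2 fold change was 1.35 ± 0.10 (SE, adjusted p = 3.75e-18, edgeR). Of the 11 regions compared, the thalamic region had the highest Cacna1c. It lay above the Pde10a region at 68.2 CPM (62.5 to 71.9) and the Lmo3 region at 57.6 CPM, with no overlap between these 3. With the Cabp7 and Neurod6 region of section 6 added, the log2 fold change of Cacna1c was 1.21. The Cacna1c level of that added region is not given, so it has no place in this order. The other L-type gene, Cacna1d, had 25.5, 22.3 and 23.4 CPM in the thalamic region, against 24.4 ± 1.84 CPM in the other regions, and was not called (log2 fold change 0.01 ± 0.14).

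The R-type pore gene Cacna1e had 33.8, 36.4 and 32.2 CPM in the thalamic region of sections 2, 5 and 6, against 83.9 ± 5.08 CPM in the other regions (log2 fold change -1.06 ± 0.14, adjusted p = 3.37e-09, edgeR). Of the 11 regions compared, Cacna1e was highest in the Lmo3 region, at 187 CPM (162 to 203), and next in the Pde10a region, at 138 CPM (124 to 153). With the Cabp7 and Neurod6 region of section 6 added, its log2 fold change was -1.22. The Cacna1e level of that added region is not given. The thalamic region overlapped the Mobp and Ttr regions near the bottom of the order. The N-type gene Cacna1b had 54.4, 55.7 and 56.7 CPM in the thalamic region, against 49.0 ± 0.727 CPM in the other regions (log2 fold change 0.32 ± 0.11, adjusted p = 0.0221, edgeR), and lost its call without section 5 (adjusted p = 0.0928) or without section 6 (adjusted p = 0.162). The thalamic region was in place 4 of 11 for Cacna1b, below the Lmo3, Lamp5 and Oxt regions at 80.2, 78.4 and 77.5 CPM. It overlapped the Trbc2 region at 53.8 CPM. Cacna1a averaged 89.7 ± 17.6 CPM in the thalamic region and 85.2 ± 6.63 CPM in the others (log2 fold change 0.18 ± 0.10, not called), and was highest in the Lamp5 region, at 172 CPM.

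**Figure D3:**
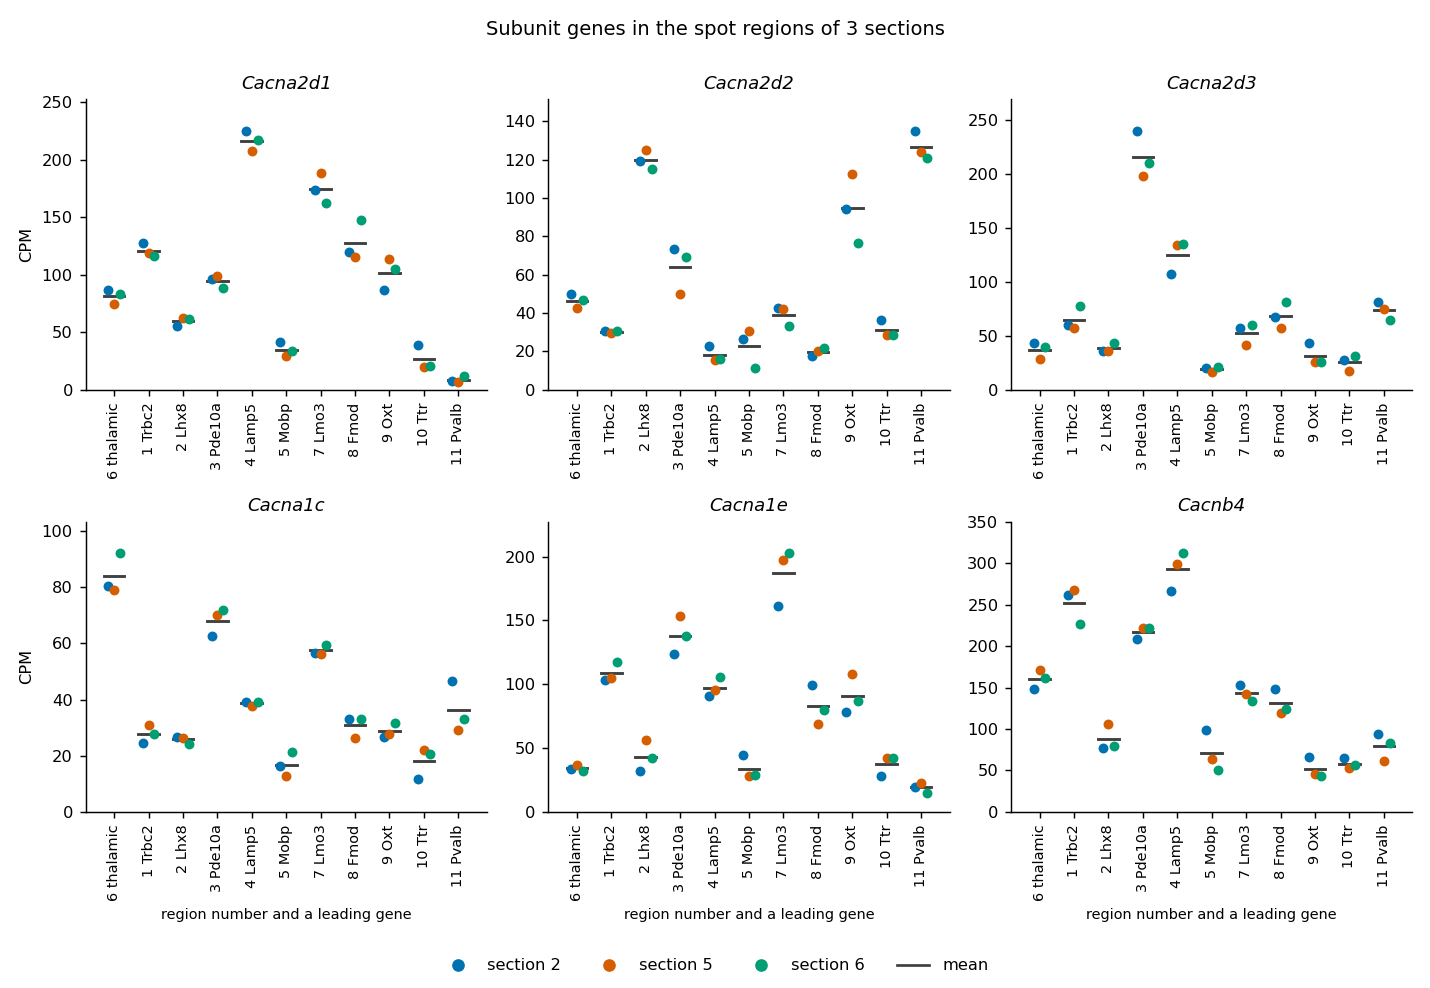
Levels of 6 of the genes in the 11 spot regions, with the thalamic region at the left, CPM on the y axis and 1 point per section; horizontal lines are means. Of these 11 regions, Cacna1c was highest in the thalamic region, and the 3 alpha2delta genes peaked in different regions.

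The 3 alpha2delta genes differed in where they were highest. Cacna2d1 was highest in the Lamp5 region, at 217 CPM (208 to 226 over the 3 sections), and then in the Lmo3 region, at 175 CPM, and lowest in the Pvalb and Six3 region, at 8.49 CPM (6.52 to 11.6), below every other region without overlap. Cacna2d2 had its highest levels in that same Pvalb and Six3 region, at 127 CPM (121 to 135), and in the Lhx8 region, at 120 CPM (115 to 125), which overlapped. Its lowest mean was in the Lamp5 region, at 18.1 CPM, where Cacna2d1 was highest. Cacna2d3 was highest in the Pde10a region, at 216 CPM (198 to 240), and then in the Lamp5 region, at 125 CPM, with no overlap, and lowest in the Mobp region, at 19.4 CPM.

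In the thalamic region itself, Cacna2d3 had 43.6, 28.3 and 39.8 CPM in sections 2, 5 and 6, against 71.6 ± 5.06 CPM in the other regions (log2 fold change -0.61 ± 0.13, adjusted p = 0.000107, edgeR). Cacna2d1 had 86.8, 74.9 and 83.0 CPM there, against 96.7 ± 0.586 CPM in the other regions, yet its log2 fold change was 0.15 ± 0.10, because the fit takes the mean of the regions on the log scale. It was not called, nor was Cacna2d2, at 50.0, 42.5 and 46.8 CPM in the thalamic region and 56.7 ± 3.87 CPM in the others. Both genes lay in the middle of their orders, in place 7 for Cacna2d1 and place 5 for Cacna2d2 of 11 regions.

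The beta genes moved in opposite directions. Cacnb4 had 148, 171 and 162 CPM in the thalamic region of sections 2, 5 and 6, against 138 ± 5.42 CPM in the other regions (log2 fold change 0.37 ± 0.09, adjusted p = 0.000888, edgeR). The thalamic region was in place 4 of 11 for Cacnb4. It lay below the Lamp5, Trbc2 and Pde10a regions, at 293, 252 and 217 CPM, without overlap, and overlapped the Lmo3 region at 143 CPM. Cacnb3 had 50.0, 57.7 and 90.6 CPM in the thalamic region, against 99.5 ± 5.13 CPM in the other regions (log2 fold change -0.36 ± 0.12, adjusted p = 0.0163, edgeR). Section 6 stood above the other sections, and on the log scale it was higher in the thalamic region than in its other regions. The Cacnb3 call was lost without section 2 (adjusted p = 0.308), without section 5 (adjusted p = 0.12), with no section block (adjusted p = 0.0647) and with all genes allowed in clustering (adjusted p = 0.0546), all by edgeR.

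Over the 33 section by region sums, which share sections and depth, Cacna2d1 was most like Cacnb3 (Pearson r = 0.878) and Cacna1e (r = 0.817). In the neuron sums Cacna1e had instead run against Cacna2d1. Of the partner genes, 8 of 15 scaffold genes were higher in the thalamic region and 1 lower (median log2 fold change 0.28), led by Rims3 at 350 ± 42.6 CPM in the thalamic region and 101 ± 5.18 CPM in the others (2.00 ± 0.07) and followed by Pclo (0.82 ± 0.09), Rims2 (1.04 ± 0.17) and Ppfia4 (0.63 ± 0.11). The alpha2delta gene outside the 10, Cacna2d4, had 12.8 ± 1.50 CPM in the thalamic region and 2.65 ± 0.306 CPM in the others (2.37 ± 0.30), and Cacnb2 was higher as well (1.17 ± 0.12), whereas Cacnb1 was lower (-0.46 ± 0.13). The low-voltage pore gene Cacna1g was higher (2.26 ± 0.10) and Cacna1h (-1.50 ± 0.24) and Cacna1i (-1.14 ± 0.20) were lower. Of the plasma membrane and store pumps and exchangers that remove calcium, 3 of 8 were higher and 3 lower. Of the calcium-signalling kinases and phosphatases, 2 of 9 were higher and 4 lower. Over all genes tested in the thalamic region, 16.5% were higher and 13.2% lower.

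The thalamic region divided into 5 subregions that entered the comparison, again built without Cacn genes. Subregion 6, led by genes that included Tac2, Gng8 and Pou4f1, held 9 spots and was left out of the main fit. Its thalamic neuron markers summed to 1007 CPM, against 1335 to 2915 CPM in the other subregions. The part of its make-up in the calls lost on adding it was not tested. In the subregion led by Nexn, Itga4 and Npsr1 (202 spots), 1 of the 10 genes was higher and 2 lower, with 9.57% of 7011 genes tested called, 5.93% higher and 3.64% lower. Cacnb4 had 209, 226 and 182 CPM there in sections 2, 5 and 6, against 147 ± 6.33 CPM in the other subregions (log2 fold change 0.56 ± 0.14, adjusted p = 0.00351, edgeR). Cacna2d3 had 12.1, 15.3 and 22.7 CPM, against 43.0 ± 11.1 CPM (-1.36 ± 0.33, adjusted p = 0.00211), and Cacnb3 had 24.3, 26.8 and 36.7 CPM, against 56.8 ± 10.5 CPM (-0.99 ± 0.26, adjusted p = 0.00511). Without section 2, Cacna2d3 and Cacnb3 lost their calls (adjusted p = 0.20 and 0.088), with all genes allowed in clustering Cacna2d3 did (adjusted p = 0.0652), without section 5 Cacnb4 did (adjusted p = 0.0955), and with DESeq2 all 3 did (adjusted p = 0.0873 for Cacnb4, 0.0616 for Cacna2d3 and 0.109 for Cacnb3). Of the 5 subregions, this one had the highest sum of oligodendrocyte markers, at 10019 CPM against 3048 to 7369 CPM in the others. Its endothelial markers (270 CPM against 136 to 212 CPM) and its pericyte and smooth muscle markers (177 CPM against 80.4 to 135 CPM) were also the highest, and the part of these cell types was not tested.

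In the C1ql2 subregion (41 spots), 1 of the 10 genes was lower and 0 higher, with 12.7% of genes called, 5.85% lower and 6.89% higher. Cacnb4 had 132, 87.0 and 69.7 CPM there in sections 2, 5 and 6, against 177 ± 10.2 CPM in the other subregions (log2 fold change -0.82 ± 0.23, adjusted p = 0.0074, edgeR), and the call was lost without section 5 (adjusted p = 0.093), without section 6 (adjusted p = 0.259) and with a small subregion of 9 spots added (adjusted p = 0.332). Cacna2d1 had 51.2, 47.4 and 52.3 CPM there, below every value of the other subregions except 50.5 CPM in section 5 of the Rab3b subregion, and missed the threshold (log2 fold change -0.76 ± 0.29, adjusted p = 0.0752, edgeR). Cacnb4 was thus called lower in the C1ql2 groups of both assays, while Cacna1a, lower in the C1ql2 neurons, had a log2 fold change of 0.06 ± 0.24 in the C1ql2 spots; the difference between the assays was not tested. The same subregion had 7 of 8 fusion and sensor genes higher and 1 lower, among them Snap25 (1.34 ± 0.07) and Vamp1 (2.26 ± 0.15), and 3 of 4 alpha2delta-binding genes lower, among them Lrp1 (-0.72 ± 0.21) and Nrxn2 (-0.51 ± 0.18).

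In the Tnnt1, Calca and Prkcd subregion (131 spots), 1 of the 10 genes was higher and 0 lower, with 3.87% of genes called, 2.65% higher and 1.21% lower. Cacna2d1 had 124, 124 and 103 CPM there in sections 2, 5 and 6, against 71.1 ± 8.12 CPM in the other subregions (log2 fold change 0.70 ± 0.19, adjusted p = 0.0163, edgeR). The call was lost without any 1 of the sections (adjusted p = 0.132, 0.177 and 0.0754 without sections 2, 5 and 6) with DESeq2 (adjusted p = 0.209) and with all genes allowed in clustering (adjusted p = 0.682). In the Oxt and Avp subregion (103 spots, sections 5 and 6 only), 1 of the 10 genes was higher and 0 lower, with 5.48% of genes called, 3.17% higher and 2.31% lower: Cacnb3 had 89.3 and 98.3 CPM there, against 44.7 ± 5.60 CPM in the other subregions (log2 fold change 1.00 ± 0.27, adjusted p = 0.0103, edgeR). That call was lost without section 5 (adjusted p = 0.175), without section 6 (adjusted p = 0.265), where the lone section was assumed to vary like the rest, with DESeq2 (adjusted p = 0.19), with all genes allowed in clustering (adjusted p = 0.232) and with the small subregion added (adjusted p = 0.74). In the Rab3b subregion (172 spots), edgeR and DESeq2 called 0 of the 10, with 4.35% of genes called by edgeR, 2.68% higher and 1.67% lower. An unadjusted edgeR p under 0.05 was found for 1 of the 10 and for 964 of the 7011 genes tested. The 1 was Cacna2d2 at 59.0, 57.7 and 59.1 CPM, against 38.6 ± 2.76 CPM in the other subregions.

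**Figure D4:**
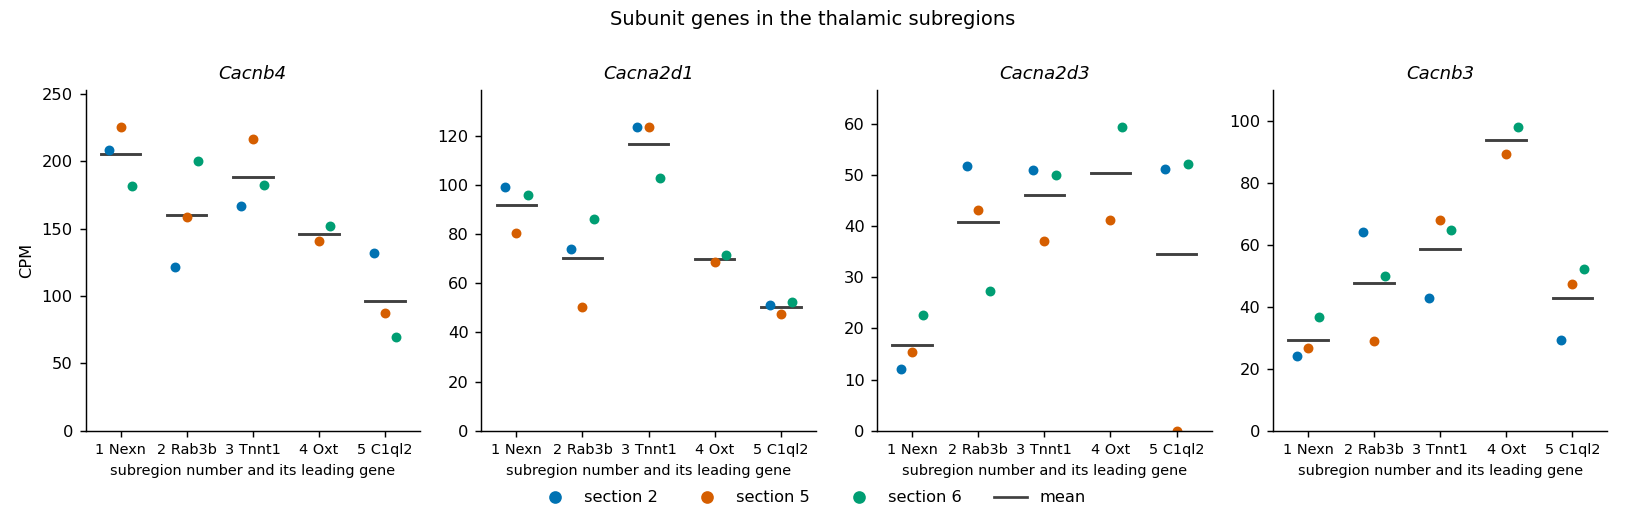
Levels of Cacnb4, Cacna2d1, Cacna2d3 and Cacnb3 in the 5 thalamic subregions, with CPM on the y axis and 1 point per section; horizontal lines are means. Cacnb4 had its lowest mean in the C1ql2 subregion and Cacna2d3 had its lowest mean in the Nexn subregion. Single sections differed: in section 2 Cacnb4 was lower in the Rab3b subregion, at 122 against 132 CPM in the C1ql2 subregion. In section 5 Cacna2d3 was 0 CPM in the C1ql2 subregion, against 15.3 CPM in the Nexn subregion.

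The 3 sections allow no test of position, since 1 was anterior. Cacna2d3 had 28.3 CPM in the thalamic region of the anterior section, against 43.6 and 39.8 CPM in the posterior sections, a ratio of 0.68 to the posterior mean. Cacnb4 had 171 CPM in the anterior section, against 148 and 162 CPM in the posterior sections. For each of the 10 genes, the 95% Poisson interval of the anterior section overlapped those of the posterior sections; these intervals cover counting error only, and their overlap is no test of a difference.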

How the data were processed

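RNA was measured in hand-picked single cells of 14 labelled samples and in 3 Visium sections. The deposited tables hold raw counts per gene and well or spot, without normalization by the authors; whether a count is a molecule or a read is not given in the sources used here. The submitters' processing notes name Seurat, Space Ranger, NCBIM37 and mm10 with no role, and 0 columns of per-sample values were left unmapped. Wells could not be tied to the 14 samples, so the animal number in the deposited well table served as the replicate; the section was the replicate for spots.

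The members and gene lists were chosen with earlier results of these data known. Cells with at least 1000 genes, and all spots, were clustered with scanpy 1.11.5 (counts scaled to 10000, log, 2000 variable genes without the Cacn family, 30 components, 15 neighbours, Leiden resolution 0.5). No doublet caller was run. The 384 well barcodes recur over the 14 plates, and the 7827 spots share 4182 barcodes. Counts were summed per animal or section and cluster, with at least 5 cells or spots in a sum and sums in at least 2 replicates, and tested with edgeR 4.0.16 (TMM, filterByExpr, quasi-likelihood F test, replicate as block, all clusters in 1 fit) in R 4.3.3, with Benjamini-Hochberg adjustment over all genes tested. SE is the log2 fold change over the root of F. Same-replicate deviations had a median correlation of 0.054, 0.081 and 0.077 in neurons, regions and subregions, against -0.028, -0.056 and -0.046 for other pairs; the block was kept because clusters of 1 animal or regions of 1 section come from the same source. Total counts were 3106802 to 28690065 per animal and 13788407 to 26032042 per section. On simulated counts, changes were placed only in genes above the median level, and only in cluster 1, the thalamic region and the Nexn subregion. In cluster 1, 43% of 2-fold and 92% of 4-fold changes were recovered, and at least 99% in the thalamic region and the Nexn subregion. Recovery in the other clusters and subregions, and for genes of lower level, was not simulated. Named genes were all 10 members, up to 4 called genes of each partner list by adjusted p, and the 3 genes most like each called member; some called genes are not reported here. Alternatives were DESeq2 1.42.0, its size factors, no filter, no block, each replicate left out, all genes in clustering, split counts, a minimum of 2000 genes, and neurons with 3 or more markers of other cells left out; merging clusters 1 and 4 and adding groups seen in 1 section were chosen after seeing the data. Promoters came from RefSeq on GRCm38.p6.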

Additional observations from a re-analysis of the deposited data

Results flagged for a closer look

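Cacna2d2 was lower in the thalamic region than in the other regions of the anterior section (log2 difference -0.069) and higher in both posterior sections (0.07 and 0.24). The difference between the section positions was not tested, and all 3 values are small.

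Wells outside the comparisons held counts of the members. In 56 wells of ERCC spike-in controls with 79309 counts in total, Cacnb3 had 9 counts in 2 wells, against 0 counts in the 16 blank wells. The 8 wells recorded under another animal number held 529619 counts, with 100 of Cacna1a, 41 of Cacna1b, 48 of Cacna1c, 4 of Cacna1d, 60 of Cacna2d1, 25 of Cacna2d3, 93 of Cacnb3 and 117 of Cacnb4, and they were left out of all results. The blank wells, with 323 counts in all, had 0 counts of every member.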

How the results depend on the processing

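Of 20 called member results, Cacna1a in cluster 3, Cacna2d1 and Cacnb4 in cluster 5, and Cacna1c, Cacna1e, Cacna2d3 and Cacnb4 in the thalamic region kept direction and call in every alternative, and no called member changed sign in any. With 1 replicate left out, edgeR called 18 to 800 of all genes in cluster 1, 56 to 867 in cluster 2 and 305 to 3556 in cluster 3. It called 547 to 3372 in cluster 5 and 2848 to 3052 in the thalamic region. In cluster 4, 3 members and 527 of all genes were called without animal 1, and leaving out animal 2 or 3 left 1 animal there. The number of members called in these fits ran from 0 to 2 in cluster 1, 0 to 2 in cluster 2, 2 to 7 in cluster 3, 2 to 7 in cluster 5 and 4 to 6 in the thalamic region. In the subregions it ran from 1 to 3 for Nexn, 0 to 0 for Rab3b, 0 to 0 for Tnnt1, 0 to 1 for Oxt and 0 to 1 for C1ql2. With DESeq2, 1 member was called in cluster 1 and 1 in cluster 4 (0 by edgeR in both), and 0 in the Nexn (3), Tnnt1 (1) and Oxt (1) subregions. With all genes in clustering, 2 were called in cluster 1, 0 in cluster 2, 1 in the Rab3b, 0 in the Tnnt1 and 2 in the Oxt subregion. Over all genes, that setting called 143 in cluster 1 and 189 in cluster 2. For the subregions, calls over all genes are not given for that setting or for the fits with 1 section left out. Those subregion counts are therefore no result about the members. Cluster 2 also gave 0 with split counts, with at least 2000 genes, without neurons holding markers of other cells, and with clusters 1 and 4 merged. Over all genes, 149, 214, 244 and 174 were called in cluster 2 in these settings, in that order. In the merged cluster, 1 member and 137 of all genes were called. At least 2000 genes gave 1 in cluster 1 and 2 in cluster 5, while 215 and 1136 of all genes were called. With the 9-spot subregion added, the counts moved in the Nexn, Tnnt1, Oxt and C1ql2 subregions. They are not given, because the added subregion had a sum in 1 section only. The cause of these moves was not tested. Cluster 4 did not separate with all genes, split counts or 2000 genes, so no value could be had there.

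Over all genes, edgeR and DESeq2 called 123 and 311 genes in cluster 1, 274 and 489 in cluster 2, 1643 and 2489 in cluster 3, 45 and 87 in cluster 4, 1716 and 2594 in cluster 5, and 671 and 274, 305 and 112, 271 and 91, 384 and 156, and 893 and 524 in the Nexn, Rab3b, Tnnt1, Oxt and C1ql2 subregions. Without a filter on low counts, edgeR called 264, 481 and 107 genes in clusters 1, 2 and 4. With no replicate block, 5 members were called in the thalamic region in place of 6, the other member counts did not move, and 68 genes were called in cluster 1, 424 in the Nexn, 172 in the Rab3b and 91 in the Tnnt1 subregion. Depth was lowest in animal 2, with a median of 8872 counts per neuron.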
